A study of Homo sapiens with 4 samples.

Results

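The miR-320 family, listed as hsa-miR-320a-3p (written miR-320a here), hsa-miR-320b, hsa-miR-320c, hsa-miR-320d and hsa-miR-320e, and hsa-miR-484 were examined in small RNA libraries of colorectal cancer cells. These 6 miRNAs were looked up by name, and 5 of them were among the 1474 miRNAs that any of the 4 libraries listed. They were chosen in part by the measured ratios of radioresistant to parental cells, since miR-320b moved in opposite directions in the derivatives of the 2 cell lines, so the values of radioresistant against parental cells are given here as a description without a test. All but miR-320e were listed in each library, and miR-320e was listed in none.

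HCT116 and RKO are established human colorectal cancer cell lines, and the parental cells of both were sequenced without irradiation. HCT116-R and RKO-R are their acquired radioresistant lines, which were derived by repeated X-ray fractions and then kept for weeks without irradiation before use. Each of these 4 lines gave 1 library, so a difference between a radioresistant line and its parent has no replicate check, and each radioresistant line is 1 derivation. Library totals lay between 6818497 counts in HCT116-R and 7140460 in RKO, and levels are given as counts scaled by the library total (CPM) with 95% Wilson confidence intervals. These intervals cover counting error only. Of 8 epithelial and intestinal marker miRNAs, 7 or 8 were listed in each library, with a summed level of 62980 and 58540 CPM in HCT116 and HCT116-R and of 10100 and 11700 CPM in RKO and RKO-R. The 12 markers of blood, stromal, muscle, liver and nerve cells summed to between 39.1 CPM in RKO and 411 CPM in HCT116, and their part in the values below was not tested. Between 10 and 11 of these 12 were listed, and those at 0 were miR-144-3p and miR-124-3p in HCT116, miR-133a-3p in HCT116-R, miR-145-5p and miR-124-3p in RKO, and miR-144-3p in RKO-R.

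Most miRNAs are cut from a long primary transcript by the nuclear enzyme Drosha and its partner DGCR8, exported as a hairpin and cut again by Dicer. The precursors of miR-320 and miR-484 are known exceptions. They arise directly as short capped transcripts of RNA polymerase II, need no cut by Drosha, and leave the nucleus through exportin 1, after which Dicer releases the mature strand, which is almost always the 3' strand of the miR-320 hairpin. The miR-320 variants are encoded at separate loci and have nearly the same mature sequence.

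The mature sequences are shown because the variants differ at their 3' ends, which decides how a read can be assigned. They were read from RefSeq (GRCh38.p14), and the entries that were read covered 5 of the 6. The seed (bases 2 to 8, the part that pairs with targets) is in capitals. MiR-320a was not among the entries read, so no sequence is shown for it. An absence of miR-320a from RefSeq is not implied.
miR-320b: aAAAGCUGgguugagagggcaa
miR-320c: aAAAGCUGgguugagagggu
miR-320d: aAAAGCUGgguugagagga
miR-320e: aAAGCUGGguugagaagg
miR-484: uCAGGCUCaguccccucccgau
MiR-320b, miR-320c and miR-320d have the same seed, AAAGCUG. The first 19 bases of miR-320b and miR-320c are identical, and miR-320d shares the first 18 with both. Reads that end within these bases cannot be told apart between the variants, and the sources used here do not say how such reads were counted. This comparison left out miR-320a, the most abundant variant, so which of its reads could be counted as another variant was not examined. MiR-320e starts at the second base of miR-320b and follows it for 15 bases, so its seed is shifted to AAGCUGG. The sequence of miR-484 is unrelated from its first base.

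The variants come from several places in the genome, and equal mature sequences cannot be assigned to a single locus. MiR-320b is encoded at chr1:116671787-116671808 on the plus strand, where no other gene is annotated in GENCODE release 29, and at chr1:224257049-224257070 on the minus strand, in an intron of NVL and on its strand. MiR-320c lies at chr18:21683559-21683578 and chr18:24321716-24321735, both on the plus strand, in introns of ABHD3 and OSBPL1A, which are transcribed from the opposite strand. MiR-320d lies on the minus strand at chr13:40727828-40727846 and chrX:140926172-140926190, outside other annotated genes. MiR-320e lies at chr19:46709294-46709311 on the minus strand, in an intron of PRKD2. MiR-484 has 1 locus, chr16:15643301-15643322 on the plus strand, within a UTR of NDE1. No other miRNA hairpin of the RefSeq table overlapped these loci, and none of the members had counts identical to those of another miRNA in all libraries.

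MiR-320a was the most abundant member in every library and accounted for most counts of the family. HCT116 held 11714 counts of it and HCT116-R 8558, or 1717 CPM (1686 to 1748) and 1255 CPM (1229 to 1282). RKO held 11434 and RKO-R 7581, or 1601 CPM (1572 to 1631) and 1097 CPM (1072 to 1122). Both radioresistant libraries were thus below both parental libraries, and the 4 counting intervals did not overlap. It ranked between 53 and 63 among the miRNAs of its library. The other strand of its hairpin, miR-320a-5p, had 2 counts in HCT116-R and 0 in the other libraries.

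MiR-484 was the second most abundant member. Its counts were 4135 in HCT116 and 3051 in HCT116-R, or 606 CPM (588 to 625) and 448 CPM (432 to 464). RKO gave 5942 and RKO-R 4360, or 832 CPM (811 to 854) and 631 CPM (612 to 650). RKO was highest and HCT116-R lowest, and the intervals of RKO-R and HCT116 overlapped. Each radioresistant library was below its own parent.

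MiR-320b was the only member with a higher level in 1 radioresistant library and a lower level in the other. Its 262 counts in HCT116 stood against 975 in HCT116-R, or 38.4 CPM (34.0 to 43.3) against 143 CPM (134 to 152). RKO had 741 and RKO-R had 94, or 103.8 CPM (96.6 to 111.5) and 13.6 CPM (11.1 to 16.6). From lowest to highest the libraries stood as RKO-R, HCT116, RKO and HCT116-R, without overlap of their intervals. For miR-320c, HCT116 had 498 counts and HCT116-R 407, or 73.0 CPM (66.9 to 79.7) and 59.7 CPM (54.2 to 65.8). RKO had 833 and RKO-R had 442, or 116.7 CPM (109 to 125) and 63.9 CPM (58.3 to 70.2). RKO stood above the other 3 libraries, in which neighbouring intervals overlapped.

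For miR-320d, the lowest of the listed variants, HCT116 had 102 counts and HCT116-R 78, or 14.95 CPM (12.3 to 18.2) and 11.4 CPM (9.17 to 14.3). RKO had 175 and RKO-R had 60, or 24.5 CPM (21.1 to 28.4) and 8.68 CPM (6.74 to 11.2). RKO was again highest, and each of the other 3 overlapped its neighbour in the order. MiR-320e had 0 counts in all 4 libraries. A floor of 3 counts corresponds to 0.420 CPM in RKO and 0.440 CPM in HCT116-R, and the Wilson intervals of miR-320e reached 0.538 and 0.563 CPM there. These limits hold only if the miRNA annotation behind the counts, which is not given, included miR-320e. Counts were not divided by length, since a read spans the whole miRNA. Within a library the order was miR-320a, miR-484, miR-320c, miR-320b and miR-320d in HCT116, RKO and RKO-R, while in HCT116-R miR-320b stood above miR-320c. The intervals of miR-320b and miR-320c overlapped in RKO, and those of miR-320b and miR-320d overlapped in RKO-R.

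**Figure D1:**
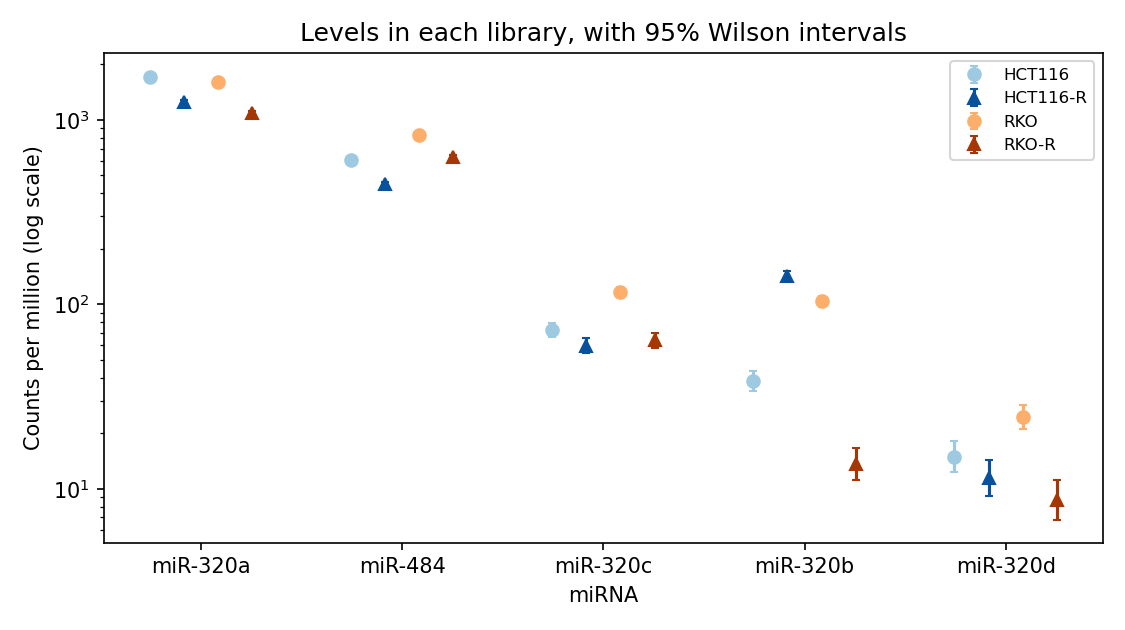
Levels of the 5 listed members in CPM (log axis) in each library, with circles for parental lines, triangles for radioresistant lines and bars for 95% Wilson intervals. MiR-320a, miR-484, miR-320c and miR-320d are lower in each radioresistant library than in its parent, whereas miR-320b is at 143 CPM in HCT116-R and 13.6 CPM in RKO-R against 38.4 and 103.8 CPM in the parents.

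The comparison of HCT116-R with HCT116 asks what differs in the radioresistant derivative. The CPM ratio of miR-320b was 3.72 (counting interval 3.25 to 4.29), a log2 ratio of 1.90. The ratios of the other members lay below 1. They were 0.731 (0.711 to 0.752) for miR-320a, 0.738 (0.704 to 0.774) for miR-484, 0.818 (0.716 to 0.934) for miR-320c and 0.765 (0.562 to 1.04) for miR-320d. The interval of miR-320d included no change. Of the 639 miRNAs that reached 10 counts in HCT116 or HCT116-R, 16.6% were at least 2-fold higher in HCT116-R and 9.39% at least 2-fold lower, and 47.4% were lower by any amount. Of the 5 members with counts, 1 was at least 2-fold higher, 0 were at least 2-fold lower and 4 were lower by any amount. The median log2 ratio was -0.39 over these members and 0.02 over all 639 miRNAs. All 5 also reached 100 counts in a library of the pair, and of the 318 miRNAs at that level 59.7% were lower by any amount, with a median of -0.16. A total of 40 miRNAs had a larger ratio than miR-320b.

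In the comparison of RKO-R with RKO, all 5 listed members were lower in the radioresistant library. The CPM ratio of miR-320b was 0.131 (0.105 to 0.163), a level 7.63-fold lower and a log2 ratio of -2.93. It was 0.354 (0.260 to 0.477) for miR-320d and 0.548 (0.487 to 0.616) for miR-320c. MiR-320a and miR-484, the most abundant members, had the smallest differences, with ratios of 0.685 (0.665 to 0.705) and 0.758 (0.729 to 0.788). The shares over all 539 miRNAs with at least 10 counts in RKO or RKO-R were 9.65% at least 2-fold higher, 23.9% at least 2-fold lower and 62.2% lower by any amount. Of the 5 members, 0 were at least 2-fold higher and 2 (miR-320b and miR-320d) at least 2-fold lower.

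The median log2 ratio in the RKO pair was -0.87 over the members and -0.27 over all 539 miRNAs. It was -0.22 over the 272 that reached 100 counts, of which 63.2% were lower by any amount, and 6 miRNAs of the 539 had a smaller ratio than miR-320b. Other scaling methods shifted every log2 ratio of this pair upward, by 0.24 with TMM and by 0.21 with the size factors of DESeq2. With TMM the log2 ratio of miR-484 was -0.16 instead of -0.40 and that of miR-320a was -0.31 instead of -0.55, while their sign was unchanged under each scaling tried. TMM also changed the split over all miRNAs from 52 at least 2-fold higher and 129 lower to 65 and 102. In the HCT116 pair the largest shift was -0.02.

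Both comparisons set side by side show miR-320b apart from its family. Of the 465 miRNAs with at least 10 counts in a library of each pair, 5.81% were at least 2-fold higher in HCT116-R and at least 2-fold lower in RKO-R, and miR-320b was 1 of these 27 miRNAs. The log2 ratios of miR-320b differed by 4.83 between the pairs, and 9 miRNAs differed by more in either direction. Since miR-320b was selected for this pattern, the share gives the background only. MiR-320a, miR-320c, miR-320d and miR-484 were lower in both radioresistant libraries, as were 29.2% of all 465 miRNAs and 38.5% of the 244 that reached 100 counts in a library of each pair.

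**Figure D2:**
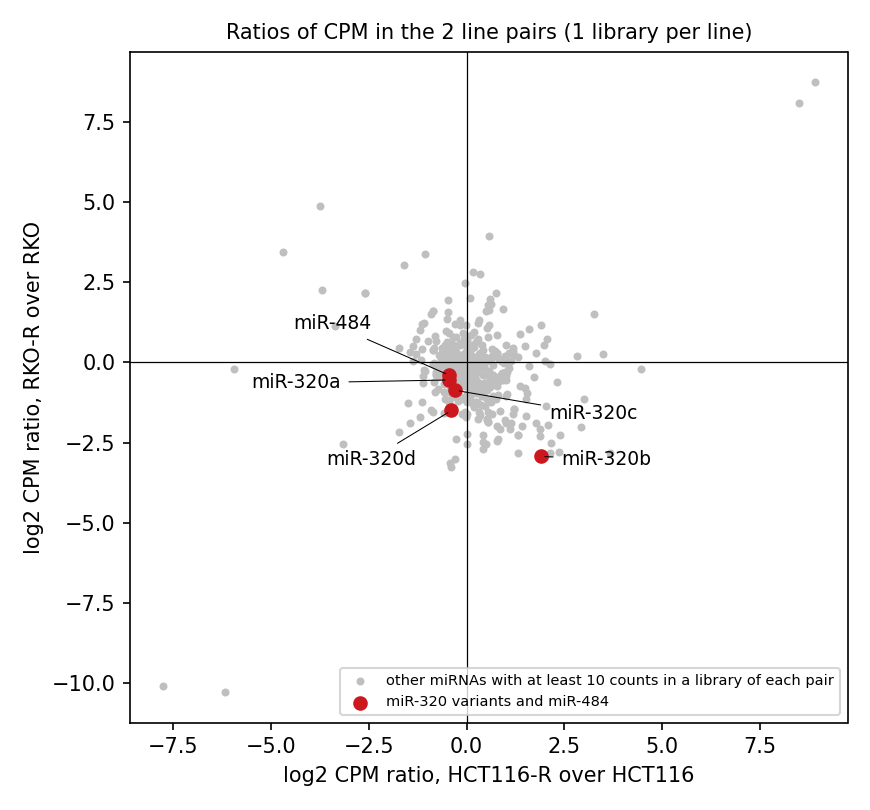
Each point is 1 of 465 miRNAs, with its log2 CPM ratio of HCT116-R over HCT116 on the horizontal axis and of RKO-R over RKO on the vertical axis (counts at or under 3 were set to 3). MiR-320b lies at 1.90 and -2.93, and the other 4 listed members lie together to the left of and below 0.

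A ratio of counts within a library does not depend on the scaling. It does depend on how reads that match several variants, miR-320a among them, were assigned, which is not known. The family summed to 12576 counts for HCT116 and 10018 for HCT116-R, then 13183 for RKO and 8177 for RKO-R, and miR-320a held 93.2%, 85.4%, 86.7% and 92.7% of these. The share of miR-320a was lowest in HCT116-R and RKO, which had the most counts of miR-320b. For every 100 counts of miR-320a there were 2.24 of miR-320b (exact binomial counting interval 1.97 to 2.53) in HCT116 and 11.4 (10.7 to 12.2) in HCT116-R, against 6.48 (6.01 to 6.98) in RKO and 1.24 (1.00 to 1.52) in RKO-R. MiR-320b was the variant whose proportion to miR-320a varied most between libraries. Since it was chosen for its opposite changes in the pairs, this is a description only.

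MiR-320c, which matches miR-320b up to its last base, kept a narrower range. There were 4.25 counts of miR-320c (3.88 to 4.65) for every 100 of miR-320a in HCT116 and 4.76 (4.30 to 5.25) in HCT116-R, against 7.29 (6.78 to 7.82) in RKO and 5.83 (5.29 to 6.42) in RKO-R. The intervals overlapped within the HCT116 pair and not within the RKO pair. For miR-320d the values were 0.871 (0.709 to 1.06), 0.911 (0.720 to 1.14), 1.53 (1.31 to 1.78) and 0.792 (0.603 to 1.02) in the same order, and RKO alone was apart from the rest. For 1 count of miR-320c there were 0.526 counts of miR-320b in HCT116 and 2.40 in HCT116-R, then 0.890 in RKO and 0.213 in RKO-R, whereas miR-320c exceeded miR-320d by 4.76-fold to 7.37-fold in all libraries.

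MiR-484 kept a similar proportion to miR-320a within each pair, with overlapping intervals in the HCT116 pair. It had 35.3 counts (34.1 to 36.6) for every 100 of miR-320a in HCT116 and 35.7 (34.2 to 37.2) in HCT116-R, against 52.0 (50.4 to 53.6) in RKO and 57.5 (55.4 to 59.7) in RKO-R. The proportions of miR-484 and miR-320c to miR-320a were higher in both libraries of RKO origin than in both of HCT116 origin, whereas those of miR-320b and miR-320d overlapped between the lines. With 2 libraries per line an exact two-sided permutation test cannot go below p = 0.333, which was the value for miR-484 and miR-320c (adjusted p = 0.666 over 4 ratios). The proportion of miR-484 was 0.62 lower and that of miR-320c 0.54 lower on the log2 scale in the HCT116 lines.

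**Figure D3:**
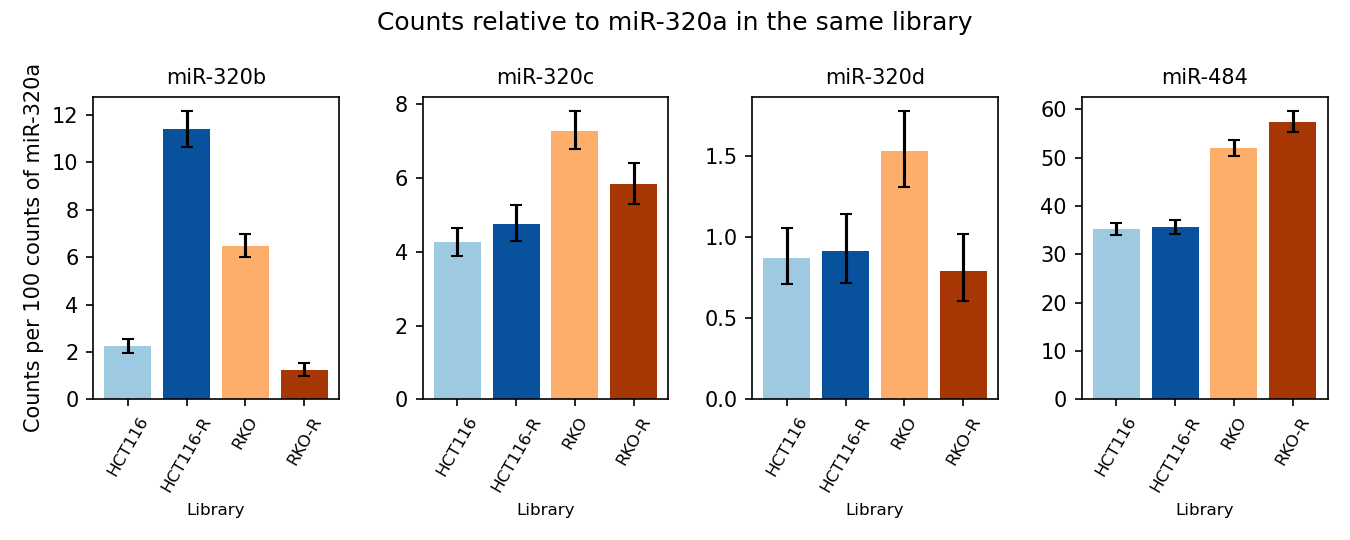
Counts of miR-320b, miR-320c, miR-320d and miR-484 for every 100 counts of miR-320a in the same library, with exact counting intervals as bars (each panel has its own axis from 0). The bars of miR-320b span 1.24 in RKO-R to 11.4 in HCT116-R, and those of miR-484 are at 35.3 and 35.7 for HCT116 and HCT116-R, below 52.0 and 57.5 for RKO and RKO-R.

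The cell lines were compared with each other because this contrast was not used to choose the members. HCT116 and HCT116-R were set against RKO and RKO-R with the quasi-likelihood test of edgeR over 598 miRNAs. The 2 libraries of a line are its parental and radioresistant cells and not replicate cultures. By this test 23.7% of all miRNAs were higher and 8.36% were lower in the HCT116 lines, whereas 0 of the 5 members tested were called (0 at an unadjusted p under 0.05, and 0 at either threshold with DESeq2). Over all miRNAs an unadjusted p under 0.05 was given to 43.1% of 598 by edgeR and to 18.7% of 1474 by DESeq2, which was run without a filter on low counts. MiR-484 had a mean of 527 CPM in the HCT116 lines and 731 CPM in the RKO lines, a difference of -0.56 on the log2 scale (SE 0.36, edgeR adjusted p = 0.293). For miR-320c, with means of 66.3 and 90.3 CPM, the log2 difference was -0.52 (SE 0.41, edgeR adjusted p = 0.386).

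MiR-320a, with means of 1486 and 1349 CPM, differed by 0.06 on the log2 scale (SE 0.37, edgeR adjusted p = 0.926). MiR-320d differed by -0.39 (SE 0.57, edgeR adjusted p = 0.663). MiR-320b differed by 0.59 (SE 0.97, edgeR adjusted p = 0.702), with the widest error among the members. This error includes the difference between the 2 libraries of a line, for which miR-320b was chosen. The direction of miR-320b depended on which library was used. The exact test of edgeR compares 2 single libraries at an assumed biological coefficient of variation of 0.2. Its log2 difference for miR-320b was -1.31 for HCT116 over RKO and 3.06 for HCT116-R over RKO-R. In the quasi-likelihood test the value of miR-320b was -0.60 without HCT116-R and -0.22 without RKO-R, while it was 2.49 without RKO and 1.24 without HCT116. These values hold the same opposite changes for which miR-320b was chosen, so they are a description without a test. The directions of miR-484 and miR-320c were unchanged without any single library, from -0.84 to -0.33 for miR-484 and from -0.84 to -0.19 for miR-320c, while miR-320a and miR-320d changed sign. The median over the 5 members was -0.39 and that over all 598 miRNAs was 0.18. The number of miRNAs called depended on single libraries as well, with 142 higher and 50 lower in all. Without RKO there were 10 and 1, without RKO-R 77 and 20, and without HCT116-R 107 and 29.

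**Figure D4:**
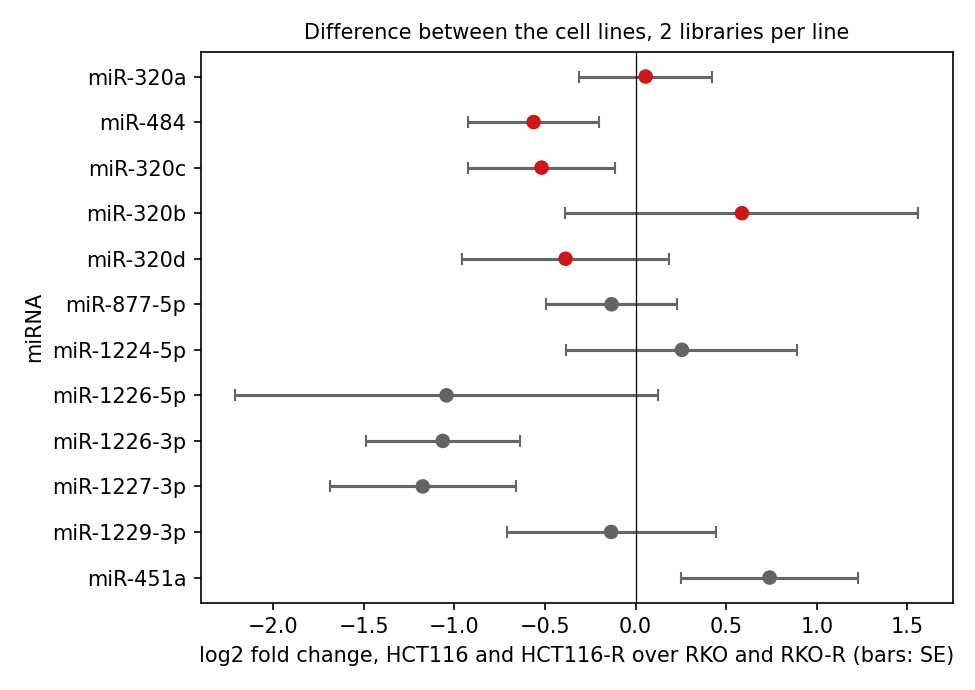
Log2 fold changes between the lines of HCT116 origin and those of RKO origin, with SE as bars, for the 5 members tested (red) and 7 other non-canonical miRNAs (grey). None passed the adjusted threshold. The bars of miR-320b (SE 0.97), which was chosen for its changes within the lines, are wider than those of miR-320a (SE 0.37).

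Other miRNAs taken to be made without Drosha, or without Dicer, were counted as a list of 15, of which 13 were listed in at least 1 library and 9 reached 10 counts. These are arms taken as mirtrons, a class whose hairpins are typically released by splicing of a short intron, and miR-451a. MiR-451a is matured by Argonaute 2 and is abundant in red blood cells, for which it also stands among the markers above. How each listed arm is made was not tested. In the exact test of edgeR with an assumed biological coefficient of variation of 0.2, 0 of 12 tested were called in the HCT116 pair, where 2.34% of all 1322 miRNAs were called higher and 1.66% lower. In the RKO pair 0 of 12 were called, against 2.51% and 3.03% of 1155. At an unadjusted p under 0.05 there were 2 for HCT116-R and 1 for RKO-R, against 11.3% and 12.8% of all miRNAs tested. With 1 library per line this test compares the libraries and not the conditions. In the comparison between the lines, 0 of 7 tested were called by edgeR or by DESeq2, and 1 had an unadjusted p under 0.05 in each, against 43.1% of all miRNAs with edgeR and 18.7% with DESeq2.

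The most abundant mirtron, miR-877-5p, gave 4404 counts for HCT116 and 3192 for HCT116-R, and 4373 for RKO and 3665 for RKO-R. It was near the level of miR-484 and was lower in both radioresistant libraries, with CPM ratios of 0.725 (0.693 to 0.759) and 0.866 (0.828 to 0.905) by library totals. With TMM its log2 ratio in the RKO pair was 0.03 instead of -0.21, so its direction there depended on the scaling. MiR-1224-5p had 57, 26, 49 and 20 counts in the same order, and miR-451a had 85, 62, 54 and 32. Both were lower in each radioresistant library than in its parent. The interval of miR-451a in the HCT116 pair included no change, with a ratio of 0.730 (0.5175 to 1.025), and the other intervals of these miRNAs lay below 1. MiR-1227-3p was higher in both, with 27 and 46 counts for HCT116 and HCT116-R and 71 and 85 for RKO and RKO-R. Its ratios were 1.705 (1.038 to 2.852) and 1.237 (0.8917 to 1.719), and the interval of the RKO pair included no change.

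MiR-1226-3p had 61, 66, 141 and 115 counts in that order of libraries, and its unadjusted p between the lines was the 1 below 0.05 (adjusted p = 0.111 from edgeR). MiR-1226-5p, from the other strand of that hairpin, had 1, 12, 24 and 3 counts, and miR-1229-3p had 15, 23, 29 and 12. MiR-1228-5p had at most 16 counts and miR-877-3p at most 15, in RKO. Apart from miR-877-5p, each of these mirtron arms had fewer counts than miR-320b in the library where that arm was highest. This did not hold in every library, since RKO-R had 115 counts of miR-1226-3p against 94 of miR-320b.

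Patterns most like those of 3 members were sought in the set that reached 100 counts in any library, by the Euclidean distance of log2(CPM + 1) centred over the 4 libraries. The nearest to miR-320a were miR-148a-3p (distance 0.142), miR-378a-3p (0.166) and miR-766-3p (0.175), against a median of 1.33 over 345 miRNAs. The nearest to miR-484 were miR-335-5p (0.0962), miR-221-3p (0.172) and miR-29c-5p (0.193), against a median of 1.41. For miR-320b the nearest were farther away, namely miR-615-3p (1.20), miR-625-3p (1.43) and miR-940 (1.53), against a median of 2.87. HCT116-R had 1137 counts of miR-615-3p against 773 in its parent, and RKO-R had 313 against 1184. MiR-940 was lower in both derivatives, with 221 counts in HCT116-R against 270 in HCT116 and 48 in RKO-R against 402 in RKO, so likeness by this distance did not require the same order as miR-320b in each pair.

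Within the family, likeness was uneven. By distance to miR-320a, miR-320c stood at position 50, miR-484 at 58, miR-320d at 65 and miR-320b at 253 of 345. The distance of miR-320b includes the opposite changes for which it was chosen. Among the RefSeq entries that were read, which do not include miR-320a or the other entries left out, few other miRNAs shared the seed of a printed member. The seed of miR-320a was not compared, so this search can miss miRNAs that share a seed, abundant ones included. MiR-4429, which has the seed of miR-320b, had 2 counts in HCT116-R and 0 elsewhere. MiR-3155a and miR-3155b, which have the seed of miR-484, had at most 7 counts in any library.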

How the data were processed

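Small RNA was cut from a gel, ligated to adapters carrying unique molecular identifiers and read on a BGISEQ-500, giving 1 library for each line. The authors deposited raw read counts per mature miRNA. The submitters' processing notes name Bowtie2 and hg38. The miRNA annotation, the assignment of reads that match several variants and the collapsing of identifiers are not given in the sources used here.

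Groups were taken from the sample titles. A miRNA missing from a library was given 0 counts. CPM used library totals of 6818497 to 7140460 counts, and ratios between libraries have exact binomial counting intervals. In counts of 2-fold ratios, values at or under 3 counts were set to 3. The cell lines were compared with edgeR 4.0.16 (glmQLFit and glmQLFTest, TMM, filterByExpr, cell line as the only factor) in R 4.3.3, with Benjamini-Hochberg adjustment and a threshold of 0.05. The exact test of edgeR at the study's coefficient of 0.2 was used for the background and for other non-canonical miRNAs. It was also run between the lines on the parental or the radioresistant libraries alone, from which members are given with log2 values only. Alternatives used DESeq2 1.42.0, other scalings, filters and coefficients. The line comparison and the exact test within each pair were tested on data simulated at a coefficient of 0.2, and the alternatives were not. In the line comparison the fitted common dispersion, which is the square of such a coefficient, was 0.247. The simulated data thus varied less than these libraries and cannot check that comparison at its own spread.

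All 6 members were named, with 15 other non-canonical miRNAs counted whole (those with at least 10 counts in a library are named) and the 3 nearest patterns for each of miR-320a, miR-320b and miR-484. The members and lists were chosen with earlier results of these data known.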

Additional observations from a re-analysis of the deposited data

Results flagged for a closer look

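MiR-320b moved in opposite directions in the 2 pairs, with log2 CPM ratios of 1.90 in HCT116-R over HCT116 and -2.93 in RKO-R over RKO, and this difference was not tested because it was used to choose the member. Its counts for every 100 of miR-320a differed by 9.15 (radioresistant minus parental) in the HCT116 pair and by -5.24 in the RKO pair. The same proportion of miR-320c differed by 0.505 and -1.46, and that of miR-320d by 0.0406 and -0.740, without a test. Among the other non-canonical miRNAs the signs were also opposite for miR-1226-5p (log2 ratios of 3.59, or 2.001 with the 1 count in HCT116 set to 3, and -2.95, with 3 counts in RKO-R), miR-1226-3p (0.11 and -0.25) and miR-1229-3p (0.62 and -1.23), and these differences were not tested. The log2 counting intervals of miR-1226-3p included no change in both pairs (-0.41 to 0.64 and -0.62 to 0.12). That of miR-1229-3p included no change in the HCT116 pair (-0.38 to 1.66) and not in the RKO pair (-2.33 to -0.21). Those of miR-1226-5p did not include it in either pair, on few counts. With 1 library per line each of these signs rests on a single pair of libraries.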

How the results depend on the processing

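In the RKO pair, TMM (within the pair or over all 4 libraries) gave log2 ratios of -0.31 for miR-320a, -0.63 for miR-320c and -0.16 for miR-484, and DESeq2 size factors gave -0.34, -0.66 and -0.19. With the family summed, the log2 ratio was -0.33 for HCT116-R and -0.64 for RKO-R in place of that of miR-320a alone. Of the 42 alternative values of pair ratios, 31 stayed within the counting interval, 11 moved and none changed sign. As a share of the family, miR-320b was 9.73% in HCT116-R and 5.62% in RKO, and miR-320c was 4.06% and 6.32%. With at least 100 counts required, 21 miRNAs were at least 2-fold higher and 29 lower in HCT116-R, and 17 and 45 in RKO-R, because fewer were counted (318 and 272).

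Between the lines, miR-320a was reversed at -0.032 with DESeq2 size factors and at -0.14 in the radioresistant libraries alone (exact test), and ranged from -0.22 to 0.29 with each library left out. MiR-320b ranged from -0.60 to 2.49 with each library left out. It was -1.31 in the parental libraries alone and 3.06 in the radioresistant libraries alone (exact test), which holds the opposite changes for which it was chosen. MiR-320d ranged from -0.92 to 0.36, and was 0.064 in the radioresistant libraries alone. Calls of all miRNAs ranged from 10 to 136 higher and from 1 to 36 lower with each library left out (fewer samples). They were 220 higher and 109 lower in the parental libraries alone, and 96 lower in the radioresistant libraries alone, where the coefficient is assumed.

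In the exact test, a coefficient of 0.4 gave 12 higher and 12 lower in HCT116-R and 7 and 2 in RKO-R, and 0.1 gave 83 and 71, and 70 and 78. In RKO-R, 56 were lower with at least 10 counts required and 54 without TMM. The other non-canonical miRNAs had 2 calls in HCT116-R and 1 in RKO-R at 0.1, and 1 call in RKO-R with at least 10 counts required or without TMM. The cause of these changes was not tested. With radioresistance as a second factor, which pairs the parental libraries and the radioresistant libraries across the lines with 1 residual degree of freedom, 132 miRNAs were higher and 37 lower, miR-484 was at -0.58 (edgeR adjusted p = 0.432) and 0 members were called. The labels number no replicates. The depth limits the low mirtrons. MiR-320e was listed in no library, and whether the annotation behind the counts included it is not known.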
